A study of Mus musculus with 8 samples.

Results

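The genes described here encode the collagens, the laminins and other proteins of the extracellular matrix that the arrays measured in mouse cumulus cells. They were chosen by name: any probe set whose only gene symbol was a collagen chain (Col followed by numbers) or a laminin chain (Lama, Lamb or Lamc), or was Nid1, Nid2, Hspg2, Sparc, Fn1, Tnc, Lox, Mgp, Fbn1, Fbln1, Fbln2, Dcn, Bgn or Lum. The rule found 53 of 8251 genes, on 77 of 12422 probe sets; 31 are collagen genes and 9 are laminin genes. Fbn1 was not analysed here. Each gene is given by its probe set of highest mean, and 18 of the 53 genes have further probe sets.

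Cumulus cells are the somatic cells around the oocyte. They came from wild-type (WT) and Ptger2(-/-) (EP2KO) females, both labelled C57Bl/6 and 3 to 4 weeks old; Ptger2 encodes EP2, a receptor for prostaglandin E2. All mice received 5 IU of PMSG, an FSH-like stimulus, and all but the 0 h mice received 5 IU of hCG, an LH-like ovulatory stimulus, 48 h later. Each genotype has 1 array of mice without hCG (0 h) and 1 array each for 3, 9 and 14 h of hCG, so there are 8 arrays and no replicates within a group. Sets of 4 array values below are in that order of time. At 0, 3 and 9 h the cells were stripped by hand from complexes freed from follicles; at 14 h the complexes were taken from the oviduct and freed of cumulus cells with 0.1% hyaluronidase, so ovulation and the way of collection cannot be told apart. The sources used here do not say how many animals stand behind an array, and nothing in the labels describes the Ptger2 allele beyond its homozygous loss.

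Basement membranes are thin sheets of laminin and type IV collagen joined by nidogens and the proteoglycan perlecan. Fibrillar collagens form the cables of stroma, and lysyl oxidase crosslinks them. In the ovary a basement membrane separates the granulosa layer from the theca, while the cumulus cells inside it are known for a hyaluronan matrix that expands before ovulation.

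Values are log2 signals, so a difference of 1 is a 2-fold change. A gene is said to rise or fall where limma, fitted with time and genotype over all 12422 probe sets, gave a Benjamini-Hochberg adjusted p under 0.05. Each such contrast compares 2 arrays (1 WT and 1 EP2KO) with 2 others, and errors are standard errors of that fit. With 1 array per group, the p-values rest on how far these arrays scatter around the fit. That scatter may be technical, and it also holds any effect of EP2 loss that differs between times. The design cannot tell these apart.

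Array medians lay between 7.79 and 7.89. Of the 53 members, 19 lay above the array median on all 8 arrays, 19 below it on all 8 and 15 in between. Low signals may be near background, since no detection calls were used. Of 11 measured markers of cumulus and granulosa cells 8 were above the median on every array, and Wt1 was below it on all 8. The targeted gene Ptger2 read 4.95, 5.97, 5.37 and 5.33 on the WT arrays and 4.57, 4.24, 4.69 and 4.51 on the EP2KO arrays at 0, 3, 9 and 14 h, lower in EP2KO at each time but not called (difference −0.90 ± 0.176, limma adjusted p = 0.528). Whether its probes lie in the deleted stretch is not known here. The difference between the 3' and 5' Gapdh control probe sets grows as RNA or labelled product gets shorter. It was 1.86, 0.80, 1.71 and 2.87 on the WT arrays and 1.48, 0.96, 1.22 and 2.82 on the EP2KO arrays. In both genotypes the Gapdh difference fell from 0 to 3 h and rose in each later step. The same difference for the Actb control probe sets was 0.97, 0.73, 1.54 and 1.61 on the WT arrays. On the EP2KO arrays it was 0.69, 0.76, 1.12 and 1.37. From 0 to 3 h the Actb difference thus fell in WT only, and it rose in each later step. The haemoglobin gene Hba-a1 read 13.39 on the WT 9 h array and 9.79 to 12.21 on the other 7.

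By 14 h, 16 of the 53 members had risen above 0 h and none had fallen, and 12 of the 16 rose at least 2-fold. Over all probe sets 28.8% were called, 13.5% as rises and 15.2% as falls; 4.62% rose and 3.22% fell at least 2-fold. The median change of the 53 was 0.01, against −0.06 over all probe sets. At an unadjusted p under 0.05 limma had 3 members lower, Col11a1, Col1a2 and Lama4. In WT 12 members stood at least 1 above their 0 h value, in EP2KO also 12, and 11 did so in both. Over all probe sets 3.45% did so in both.

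**Figure D1:**
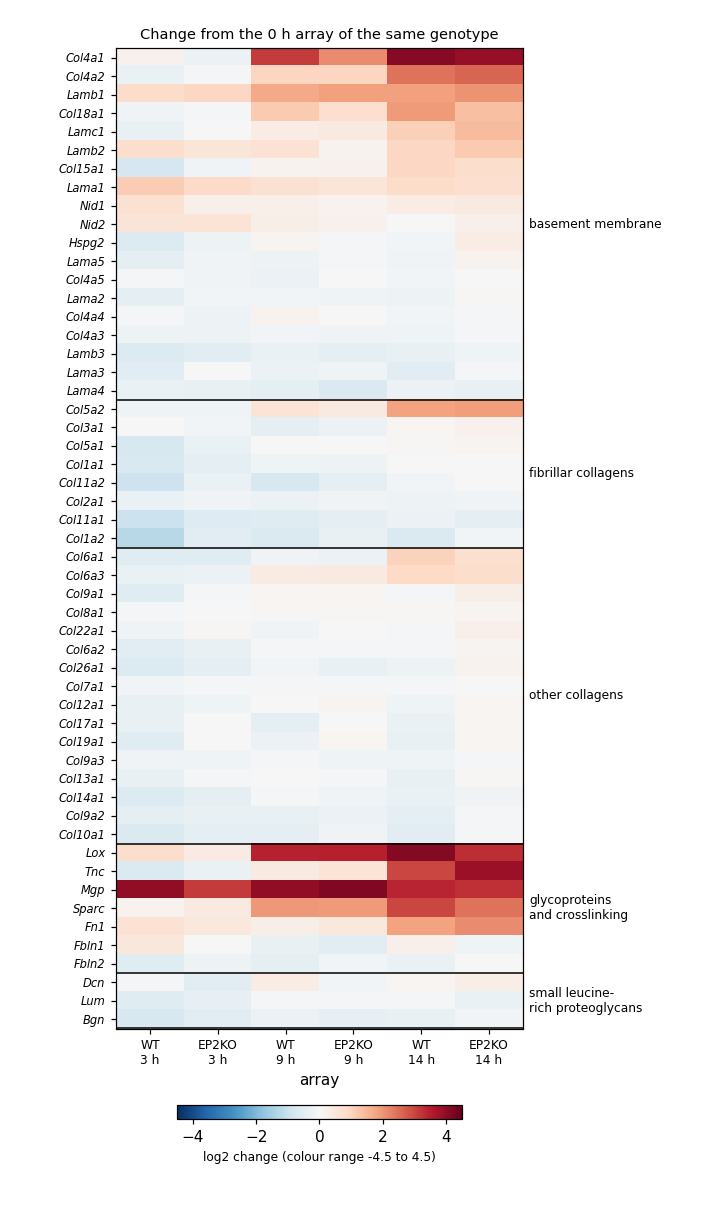
Log2 change from the 0 h array of the same genotype for all 53 members (rows, grouped by role and ordered by the 14 h change) on the WT and EP2KO arrays of 3, 9 and 14 h (columns); red is higher and blue lower. The strong colours lie in a few rows of the basement membrane and glycoprotein groups, while most collagen rows stay pale, and Mgp is already red at 3 h.

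Of 19 basement membrane genes 8 rose between 0 and 14 h, of 8 fibrillar collagens 1, of 16 other collagens 2, of 7 glycoproteins and crosslinking proteins 5, and of 3 small leucine-rich proteoglycans none. The median change of these groups was 0.12, −0.04, −0.05, 2.71 and −0.17. These shares describe the groups and were not tested against each other. Because the cells were measured in bulk, more cells of a type and more RNA per cell cannot be told apart.

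**Figure D2:**
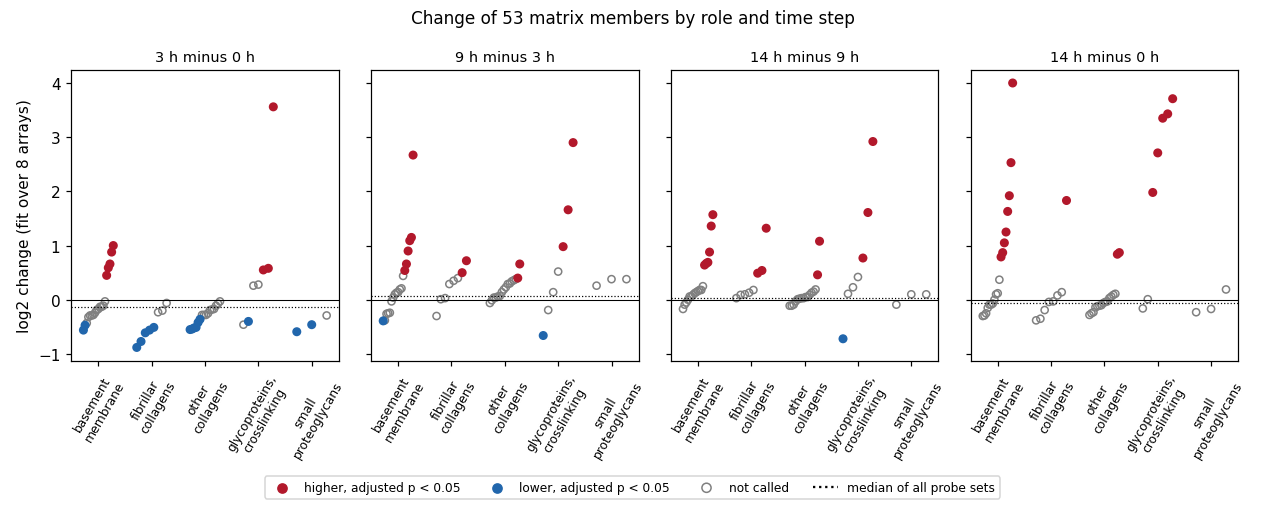
Log2 change of the 53 members (points) by role in 4 time contrasts from the fit over 8 arrays; filled red or blue points have a limma adjusted p under 0.05, open points do not, and the dotted line is the median of all probe sets. Falls gather in the 3 h panel and among collagens, whereas the later panels hold rises with few falls, and the highest points belong to the basement membrane and glycoprotein groups.

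In the basement membrane group, Col4a1 and Col4a2, the chains of the common type IV network, rose, while Col4a3, Col4a4 and Col4a5, the chains of specialised networks such as that of the kidney, were not called. Col4a1 read 8.39 at 0 h, 8.59 at 3 h, 11.54 at 9 h and 12.48 at 14 h on the WT arrays, and 8.51, 8.25, 10.64 and 12.42 on the EP2KO arrays. All 4 arrays of 9 and 14 h lay above the 4 earlier ones, and the rise from 0 to 14 h was 4.00 ± 0.204 (standard error; n = 2 arrays at either time; limma adjusted p = 5.37e-07). Col4a2 read 8.78, 8.49, 9.74 and 11.23 on the WT arrays and 8.56, 8.47, 9.51 and 11.17 on the EP2KO arrays. Its rise was 2.53 ± 0.119, again with both late times above both early ones. Col4a1 gained 2.67 between 3 and 9 h and 1.36 between 9 and 14 h, and Col4a2 gained 1.15 and 1.57. Signals of Col4a3, Col4a4 and Col4a5 stayed within 5.69 to 6.01, 7.28 to 7.57 and 6.71 to 7.0 over the 8 arrays, and no time contrast called any of them.

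Col4a1 and Col4a2 are neighbours read in opposite directions, and their RefSeq starts overlap on mouse chromosome 8. In the RefSeq promoter table (build GRCm38.p6) Col4a1 starts at 11312826 on the minus strand and Col4a2 at 11312805 on the plus strand. The 22 bases from one start to the other, chr8:11312805-11312826 on the plus strand, are shown because the pair rose together; capitals mark a match to GGGCGG, the core of a GC box.
Col4a1 and Col4a2 shared start: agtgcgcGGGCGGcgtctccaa
The 522 bases that the windows of both genes cover together hold 73.9% G or C, 3 matches to GGGCGG, 2 to CCAAT and none to TATAAA, counting both strands. In the 250 bases before a start the median was 52.4% over all windows of the table. It was 58.8% over 40 windows of members and 56.6% over 12 windows of members that rose by 14 h.

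In no other neighbouring pair of members were both genes called from 0 to 14 h. Col5a2 rose by 1.84 at 14 h while its neighbour Col3a1 stood at 0.14 (adjusted p = 0.468). Col6a1 rose by 0.87 and its neighbour Col6a2 stood at 0.03 (adjusted p = 0.861). In the pairs Col4a3 with Col4a4, Col9a1 with Col19a1, and Dcn with Lum neither gene was called. The differences within pairs were not tested.

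Laminins are trimers of an alpha, a beta and a gamma chain. Lama1, Lamb1, Lamb2 and Lamc1 rose between 0 and 14 h, and Lama2, Lama3, Lama4, Lama5 and Lamb3, with changes from −0.30 to 0.00, were not called. Lamb1 read 7.94, 8.76, 9.66 and 9.77 on the WT arrays and 7.68, 8.62, 9.51 and 9.69 on the EP2KO arrays. This probe set was higher at each later time in both genotypes and ended 1.92 ± 0.115 above 0 h (adjusted p = 1.52e-06). Its gain of 0.14 from 9 to 14 h was not called. The other Lamb1 probe set stood at −0.43 in that step (limma adjusted p = 0.0525) and rose by 1.07 from 0 to 14 h. Lama1 read 9.13, 10.27, 9.82 and 9.96 on the WT arrays and 9.32, 10.18, 9.86 and 10.07 on the EP2KO arrays. It rose by 1.0 ± 0.12 in the first 3 h, its highest arrays were those of 3 h, and at 14 h it was 0.79 above 0 h.

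Lamc1, the gamma chain of most laminins, read 9.91, 9.57, 10.26 and 10.97 on the WT arrays and 9.70, 9.70, 10.09 and 11.14 on the EP2KO arrays, and its rise from 0 to 14 h was 1.25 ± 0.135, most of it after 9 h. Its other probe set was lower in signal and changed by 0.03 (adjusted p = 0.931), so the Lamc1 call rests on 1 probe set. Lamb2 read 7.65, 8.44, 8.31 and 8.59 on the WT arrays and 7.81, 8.34, 7.98 and 8.98 on the EP2KO arrays. It rose by 0.66 in the first 3 h and by a further 0.64 from 9 to 14 h; the first of these calls ended without the WT 0 h or WT 3 h array and the second without either EP2KO array of 9 or 14 h or with the 4 arrays of these times alone.

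The 250 bases before the Lamb1 start lie at chr12:31265043-31265292 on the plus strand of GRCm38.p6 and are shown because Lamb1 is the laminin with the largest rise; capitals mark matches on either strand to CCAAT and to GGGCGG, which reads CCGCCC on the other strand.
Lamb1: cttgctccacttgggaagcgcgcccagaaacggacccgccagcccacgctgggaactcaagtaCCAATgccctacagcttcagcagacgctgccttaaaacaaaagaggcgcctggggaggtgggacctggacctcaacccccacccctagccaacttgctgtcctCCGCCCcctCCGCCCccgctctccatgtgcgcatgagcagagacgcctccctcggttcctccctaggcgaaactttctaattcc
The stretch holds 1 CCAAT and 2 GC boxes, 84 and 75 bases before the start.

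Col18a1 and Col15a1 encode basement membrane collagens that carry sugar side chains. Col18a1 read 9.34, 9.18, 10.53 and 11.26 on the WT arrays and 9.38, 9.28, 10.12 and 10.72 on the EP2KO arrays, with all arrays of 9 and 14 h above those of 0 and 3 h. Its rise was 1.63 ± 0.165 (adjusted p = 4.63e-05). Of its 5 probe sets, 4 rose by 14 h, with changes of 1.15, 1.17, 1.63 and 2.72, and the last stood at −0.12 (adjusted p = 0.511). Col15a1 read 7.33, 6.56, 7.49 and 8.27 on the WT arrays and 7.08, 6.91, 7.29 and 7.88 on the EP2KO arrays, and was 0.87 ± 0.167 above 0 h at 14 h.

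Hspg2, which encodes perlecan, ranged from 9.74 to 10.64 without a call in any contrast. Nid1 and Nid2, which encode the nidogens that bridge laminin and type IV collagen, rose at 3 h by 0.45 and 0.59, but from signals of 4.17 and 4.25 and of 4.01 and 3.86 at 0 h, low on these arrays, and neither was called at 14 h against 0 h. The Nid1 call ended without any one of the arrays of WT 0 h, WT 3 h or EP2KO 0 h and with the 4 arrays of 0 and 3 h alone, whereas the Nid2 call was kept under every alternative that was run and still tested it.

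Of the 8 fibrillar collagens, 5 fell between 0 and 3 h, namely Col1a1, Col1a2, Col5a1, Col11a1 and Col11a2, with changes from −0.51 to −0.88, where 25.4% of all probe sets fell. The calls of Col1a1, Col5a1 and Col11a2 were lost without the WT 0 h or WT 3 h array. None of the 8 was below 0 h by a called change at 14 h. Col1a2, a chain of type I collagen, read 10.53, 9.27, 9.87 and 9.89 on the WT arrays and 10.23, 9.72, 9.91 and 10.10 on the EP2KO arrays. Both 3 h arrays were the lowest of their genotype, and the WT array fell by 1.26 against 0.51 in EP2KO. Second probe sets of Col1a1, Col1a2 and Col5a1 changed by −0.06, −0.25 and −0.21 at 3 h, and none of these was called.

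Col5a2, a chain of the type V collagen that sits in the core of fibrils, was the fibrillar chain that rose by 14 h. It read 6.14, 5.95, 6.76 and 7.94 on the WT arrays and 6.04, 5.83, 6.46 and 7.92 on the EP2KO arrays, and rose by 1.84 ± 0.12 (adjusted p = 2.39e-06), by 0.72 from 3 to 9 h and by 1.32 from 9 to 14 h. Its partner chain Col5a1 was split between probe sets. The probe set of higher mean read 9.54 and 9.29 at 0 h and 9.60 and 9.40 at 14 h in WT and EP2KO and was not called over that interval, while the other rose by 0.89 (adjusted p = 0.000955).

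Among the 16 other collagens Col6a1 and Col6a3, chains of the beaded filaments of type VI collagen, were the 2 that rose by 14 h. Col6a1 read 9.14, 8.59, 8.99 and 10.17 on the WT arrays and 9.27, 8.72, 9.00 and 9.98 on the EP2KO arrays: it fell by 0.55 at 3 h and gained 1.08 ± 0.125 between 9 and 14 h (adjusted p = 0.000197). Both 14 h arrays were above the 6 earlier ones. Its second probe set rose by 1.59 from 0 to 14 h. Col6a3 read 8.55, 8.25, 8.92 and 9.44 on the WT arrays and 8.46, 8.21, 8.86 and 9.26 on the EP2KO arrays, and was 0.84 ± 0.114 above 0 h at 14 h. The third chain, Col6a2, fell by 0.42 at 3 h and was back within 0.03 of its 0 h value at 14 h.

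The glycoproteins held the widest ranges of all members, 4.24 for Tnc, 4.18 for Mgp, 4.13 for Lox and 3.26 for Sparc between their lowest and highest array, next to 4.23 for Col4a1. Mgp, a small matrix protein that blocks calcification, rose at 3 h. It read 6.19, 10.17, 10.17 and 9.62 on the WT arrays and 6.10, 9.23, 10.28 and 9.38 on the EP2KO arrays. Its rise by 3 h was 3.56 ± 0.207 (limma adjusted p = 6.38e-06). From 3 to 9 h it changed by 0.00 in WT and by 1.05 in EP2KO, and this step was not called. The fall of 0.72 from 9 to 14 h was called as deposited (adjusted p = 0.0315), but not without any one of the arrays of WT 0 h, WT 14 h, EP2KO 0 h, EP2KO 9 h or EP2KO 14 h, without the genotype term, or with the 4 arrays of 9 and 14 h alone.

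Lox, which encodes the crosslinking enzyme lysyl oxidase, rose most between 3 and 9 h. It read 6.73, 7.53, 10.20 and 10.85 on the WT arrays and 6.72, 7.08, 10.22 and 10.03 on the EP2KO arrays. The gain from 3 to 9 h was 2.90 ± 0.189 (adjusted p = 4.32e-05) and the rise from 0 to 14 h was 3.71. At 3 h its probe sets disagreed: the one of highest mean rose by 0.58 and the other fell by 0.59, both called, and their average stood at −0.01. The rise was also lost without the genotype term or without the WT 0 h, WT 3 h or EP2KO 3 h array. At 14 h both were up, the second by 0.83.

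Sparc, a collagen-binding protein, read 6.31, 6.48, 8.25 and 9.30 on the WT arrays and 6.04, 6.43, 7.97 and 8.47 on the EP2KO arrays. It gained 1.66 ± 0.169 from 3 to 9 h and was 2.71 above 0 h at 14 h (adjusted p = 1.85e-06). The further 0.77 from 9 to 14 h was lost without either WT array of these times or with their 4 arrays alone. Tnc, tenascin C, a protein of remodelling matrix, rose mainly between 9 and 14 h. It read 7.16, 6.52, 7.57 and 10.18 on the WT arrays and 6.92, 6.63, 7.54 and 10.76 on the EP2KO arrays, with a gain of 2.92 ± 0.173 from 9 to 14 h (adjusted p = 5.96e-06). Both 14 h arrays were above all earlier ones, and the second Tnc probe set rose by 4.56 from 0 to 14 h.

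The 250 bases before the starts of Sparc (chr11:55420081-55420330, minus strand) and Tnc (chr4:64046937-64047186, minus strand, 1 of 2 overlapping windows in the table) in GRCm38.p6 are shown because both genes rose more than 2-fold in each genotype and their stretches differ in the motifs searched; capitals mark matches to TATAAA and GGGCGG.
Sparc: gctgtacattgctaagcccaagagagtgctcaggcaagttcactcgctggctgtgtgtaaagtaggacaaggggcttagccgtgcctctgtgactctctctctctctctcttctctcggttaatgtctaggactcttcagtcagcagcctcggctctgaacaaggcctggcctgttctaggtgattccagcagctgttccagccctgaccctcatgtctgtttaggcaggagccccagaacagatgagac
Tnc: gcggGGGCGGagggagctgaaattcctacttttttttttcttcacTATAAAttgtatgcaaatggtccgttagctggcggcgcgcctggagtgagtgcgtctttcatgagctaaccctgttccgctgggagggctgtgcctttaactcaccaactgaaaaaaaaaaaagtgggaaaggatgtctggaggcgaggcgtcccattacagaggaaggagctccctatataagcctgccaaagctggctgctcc
Sparc holds none of the 5 motifs in this stretch. Tnc holds a TATAAA 205 bases and a GGGCGG 246 bases before this start. In its other window these lie 126 and 167 bases before the start. Only exact letters were searched, so near matches to a motif are not marked.

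Of the 53 members 34 have a window in that table, 40 windows in all, and 10 of the 16 risers do, with 12 windows. On both strands of the 250 bases before a start, GGGCGG was in 21 of the 40 member windows (52.5%) and in 5 of the 12 riser windows (41.7%), against 32.7% of all 32851 windows. CCAAT was in 11 and 4 (all windows 33.8%), TATAAA in 7 and 2 (12.4%; both riser windows are the overlapping ones of Tnc and hold the same site), the AP-1 site TGANTCA in 1, that of Col6a1 (6.75%), and the cAMP response element TGACGTCA in none (1.55%). The GGGCGG of Tnc is likewise counted in both its windows, so that the 5 riser windows with GGGCGG belong to 4 genes. No motif contains another. A match is a description of letters and not of binding.

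Fn1, fibronectin, which links cells to collagen, read 8.24, 8.88, 8.50 and 10.05 on the WT arrays and 8.10, 8.56, 8.56 and 10.24 on the EP2KO arrays. It gained 1.61 ± 0.141 from 9 to 14 h (adjusted p = 3.68e-05), and both 14 h arrays stood above the rest. The smaller rise of 0.55 at 3 h was lost without the WT 0 h, WT 3 h or EP2KO 0 h array. Fbln1 and Fbln2, fibulins that bind fibronectin and laminin, were not called between 0 and 14 h. Fbln1 fell by 0.66 from 3 to 9 h, a call lost without either WT array of these times. One of its 4 probe sets rose by 0.70 over 14 h and the other 3 stayed within 0.06 of 0 h. Dcn, Bgn and Lum, proteoglycans of collagen fibrils, were not called over that interval either.

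**Figure D3:**
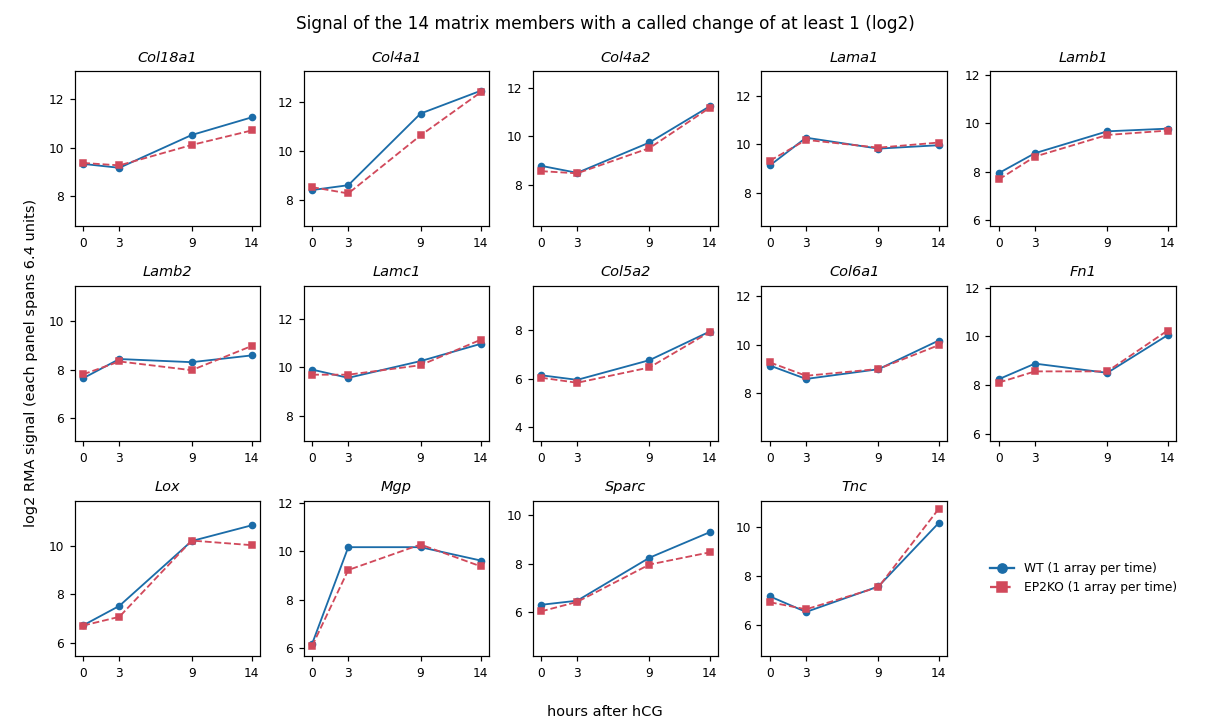
Log2 signal against hours after hCG for the 14 members with a called change of at least 1 in a time contrast, 1 array per point (WT circles with solid lines, EP2KO squares with dashed lines); every panel spans the same 6.4 units. Mgp jumps by 3 h, Lox and Col4a1 by 9 h, and Tnc and Fn1 climb mainly after 9 h, with the lines of both genotypes close together in most panels.

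Read as steps, the first 3 h called 8 members higher and 16 lower, where 17.4% of all probe sets rose and 25.4% fell; these shares of the members, 15.1% and 30.2%, were near those of all probe sets, of which 42.8% were called in all. Mgp and Lama1 rose at least 2-fold, as did 4.59% of all probe sets, and 0.950% fell that far. The 8 were Mgp, Lama1, Lamb1, Lamb2, Nid1, Nid2, Fn1 and Lox. The 16 falls were each under 1, and 11 of them were collagens of the fibrillar and other groups. The median of all probe sets itself moved by −0.135: with arrays centred on their medians 2394 of all probe sets rose and 2111 fell in this step, against 2161 and 3152 as deposited, and 8 members rose and 13 fell. With the WT 0 h array left out 4 members rose and 3 fell, and with the WT 3 h array left out 4 rose and 2, Col1a2 and Col11a1, fell.

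From 3 to 9 h 13 members rose and 2 fell, or 24.5% and 3.77%, where 7.59% of all probe sets rose and 11.8% fell (19.4% in all). Col4a1, Lox, Sparc, Col4a2 and Col18a1 rose at least 2-fold in this step, as did 0.877% of all probe sets (1.97% fell that far); Tnc, Lamb1, Col5a2, Col15a1, Col6a3, Lamc1, Col5a1 and Col14a1, a collagen that binds fibril surfaces, rose by 0.40 to 0.98. The calls of Col5a1, Col15a1 and Lamc1 were lost without the WT 3 h or WT 9 h array or with the 4 arrays of these times alone (Col5a1 and Col15a1 also without EP2KO 9 h, Lamc1 also with averaged probe sets), and those of Col5a2 and Col6a3 without the WT 9 h array. The Col14a1 rise was lost in the same 3 settings and also after median centring, after quantile normalization, and without the WT 0 h, EP2KO 0 h or EP2KO 9 h array. Fbln1 and Lama1 fell; the Lama1 fall of 0.39 was lost without any one of the arrays but EP2KO 3 h, after quantile normalization, with an intensity trend, or with the 4 arrays of these times alone. Fewer of these calls were kept without the WT 9 h array, the one with the highest haemoglobin signal, or without the WT 3 h array. The number of rises over all probe sets also changed with the array left out. The part of the haemoglobin signal was not tested.

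From 9 to 14 h 14 members rose and 1, Mgp, fell, where 10.0% of all probe sets rose and 10.1% fell (20.1% in all). Tnc, Fn1, Col4a2, Col4a1, Col5a2 and Col6a1 rose at least 2-fold, as did 2.06% of all probe sets, while 3.36% fell that far. Lamc1, Sparc, Col15a1, Col18a1, Lamb2, Col11a2, Col3a1 and Col6a3 rose by 0.46 to 0.88, and neither these 8 calls nor that of Col4a1 were kept with the 4 arrays of these times alone. The Col3a1 rise of 0.49 rests on 1 of 3 probe sets, the others standing at 0.04 and −0.04, and was lost with averaged probe sets. In this step 3 of the 5 Col18a1 probe sets (0.29, 0.22 and 0.05) and the second Lamc1 probe set (0.32) were not called. The second Lamc1 probe set was not called from 3 to 9 h either (0.08). Col3a1 and Col11a2 were lost without any one of the 9 h or 14 h arrays, Col15a1 and Col18a1 without the WT 14 h or EP2KO 9 h array, and Col6a3 without either of these or the WT 9 h array. Fewer members rose without the WT 14 h array or without the EP2KO 9 h array. With the 4 arrays of these times alone 5 members rose, and the 1247 rises over all probe sets became 301. Over both later steps 9 members rose each time, namely Col4a1, Col4a2, Col5a2, Col6a3, Col15a1, Col18a1, Lamc1, Sparc and Tnc, and 1.18% of all probe sets did so. Of these 9, Col4a2, Col5a2 and Tnc (3) kept both calls with only the 4 arrays of each step, 4 did with the WT 9 h array left out and 5 with that of WT 14 h left out.

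Markers of other cells that can hold collagen or laminin RNA were read on the same arrays. Of 12 measured markers of theca and stroma none rose from 0 to 14 h and 1, Mfap5, fell; the mean log2 signal of the list was 6.83 to 7.31 over the 8 arrays. From 9 to 14 h 3 of these 12 rose, Insl3 by 0.69, Ptch1 by 0.77 and Nr2f2 by 0.60, and none fell, with means of 7.05 and 7.0 at 9 h and 7.24 and 7.19 at 14 h in WT and EP2KO. Of 8 smooth muscle and pericyte markers none was called from 0 to 14 h (mean 7.04 to 7.36). Of 11 endothelial markers Cdh5 rose by 1.55 and Tek fell by 0.45. From 3 to 9 h 2 of the 11 rose, Cdh5 by 1.78 and Eng by 0.47; the mean was 7.16 and 7.15 at 3 h, 7.53 and 7.44 at 9 h, and 7.44 and 7.34 at 0 h. Of 10 oviduct epithelium markers 4 rose, with Ovgp1 by 3.65, Krt18 by 1.44, Krt19 by 0.75 and Krt8 by 0.51, and Foxj1 fell; the mean was 8.05 and 8.29 at 14 h and 7.41 to 7.59 before. Of 12 leukocyte markers 5 rose, Lyz2 the most at 1.69, with a mean of 7.60 and 7.97 at 14 h and 7.06 to 7.31 before. Of 11 cumulus and granulosa markers 8 fell, of 9 oocyte markers 1 (Kit) fell and of 4 erythroid markers 1 (Hbb-b2) rose. From 9 to 14 h, 4 of 10 oviduct and 6 of 12 leukocyte markers rose with the members, as did 3 theca and stroma markers. No marker of these lists fell in that step, and over all probe sets 10.0% rose and 10.1% fell. From 3 to 9 h 2 endothelial markers rose and none fell, where 7.59% of all probe sets rose and 11.8% fell. The Gapdh and Actb 3' to 5' differences rose in both of these steps. From 0 to 3 h, the step in which more members fell than rose, the Gapdh difference fell in both genotypes. The Actb difference fell there in WT only. From 0 to 3 h, 3 of 12 theca and stroma, 2 of 8 smooth muscle and pericyte and 3 of 11 endothelial markers fell. So did 3 of 12 leukocyte and 4 of 10 oviduct markers. Of these lists only the oviduct list had a rise, of 1 marker. Over all probe sets 25.4% fell and 17.4% rose. The part of these markers and of the Gapdh and Actb differences in the members' changes was not tested.

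Other genes of matrix assembly were counted from lists chosen by name. Of 19 measured genes that modify, fold, export or process collagen 11 rose from 0 to 14 h and 2 fell. Over that interval 13.5% of all probe sets rose and 15.2% fell. Serpinh1, the collagen chaperone HSP47, read 9.43, 11.02, 10.60 and 11.23 on the WT arrays and 9.70, 10.83, 10.98 and 11.31 on the EP2KO arrays and rose by 1.71 ± 0.147 (adjusted p = 1.45e-05). Bmp1, which trims procollagen and activates lysyl oxidase, rose by 1.10, Sec23a, a coat protein of export vesicles, by 0.99, P4ha1, a prolyl hydroxylase subunit, by 0.95 and Plod3, a lysyl hydroxylase, by 0.93. Loxl1, a relative of Lox, fell by 0.46 and Sec13, another coat protein, by 0.87. Without the WT 0 h array 6 of the 19 rose and 1 fell, and without the EP2KO 14 h array 7 rose and 1 fell. By step, 7 of the 19 rose and 3 fell from 0 to 3 h (all probe sets 17.4% and 25.4%). From 3 to 9 h, where 13 members rose and 2 fell, 3 of the 19 rose and 5 fell (7.59% and 11.8%). From 9 to 14 h 9 rose and 2 fell (10.0% and 10.1%).

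Of 11 measured matrix receptors other than integrins 7 rose from 0 to 14 h and none fell, where 13.5% of all probe sets rose and 15.2% fell. Cd44, 1 of the 7, rose by 0.52 but read only 5.10 to 5.88, low on these arrays. Cd47, a receptor of thrombospondins, rose by 2.10, Ddr1, a collagen-activated kinase, by 1.52, the syndecans Sdc1 and Sdc4 by 1.43 and 1.32, and Dag1, the laminin-binding dystroglycan, by 0.96. Ddr1 read 7.61, 8.15, 8.64 and 8.85 on the WT arrays and 7.47, 8.22, 8.46 and 9.27 on the EP2KO arrays, higher at each later time. Ddr2, the other collagen-activated kinase of the family, stood at −0.09 (adjusted p = 0.644).

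Loss of EP2 was compared over the 4 times with each EP2KO array set against the WT array of its time. No member was called by limma, and neither was any of the 12422 probe sets (0.00%). An effect of EP2 loss that differed between times would go into the error of this test. At an unadjusted p under 0.05 there were 2 members, 3.77% of the 53, against 5.17% of all probe sets. These were Sparc at −0.36 ± 0.12 (adjusted p = 0.897), lower in EP2KO at 4 of 4 times, and Lox at −0.32 ± 0.134 (adjusted p = 0.948), lower at 3 of 4. The median difference over the 53 members was −0.04.

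At single times, where 1 array stands against 1 and no test was made, no member differed by 1 or more. Over all probe sets 0.0403%, 0.467%, 0.129% and 0.217% did so at 0, 3, 9 and 14 h. At 0.5 or more there were no members at 0 h, 1 at 3 h, 1 at 9 h and 4 at 14 h, against 2.69%, 4.09%, 2.49% and 3.65% of all probe sets. Mgp was 0.94 lower in EP2KO at 3 h and 0.11 higher at 9 h. Col4a1 was 0.90 lower at 9 h and 0.06 lower at 14 h. Sparc and Lox were 0.83 and 0.82 lower at 14 h, Col18a1 was 0.54 lower, and Tnc was 0.58 higher. For the second probe sets of Lox and Tnc, EP2KO minus WT at 14 h was −0.40 and 0.10.

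**Figure D4:**
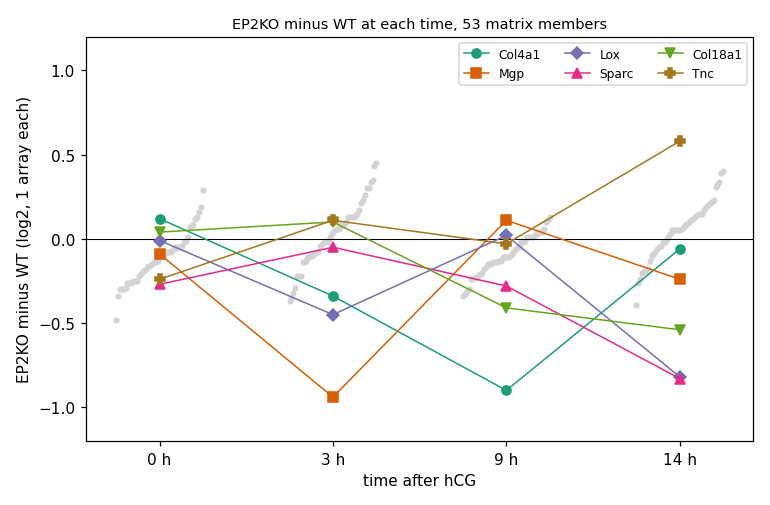
EP2KO minus WT on the log2 scale at each time, 1 array against 1, with the other 47 members in grey (sorted within a time) and 6 members drawn as lines. Mgp at 3 h, Col4a1 at 9 h, and Sparc and Lox at 14 h lie lowest at their time; no member reaches 1 in either direction.

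A further difference between EP2KO and WT at 14 h was tested as an interaction of genotype with that time. It called no member and 10 probe sets of all (0.0805%; 0.0644% higher and 0.0161% lower in EP2KO); 3 members had an unadjusted p under 0.05, 5.66% of the 53 against 6.96% of all probe sets. They were Lox at −0.67 ± 0.234 (limma adjusted p = 0.566), Sparc at −0.63 ± 0.203 (0.517) and Tnc at 0.63 ± 0.212 (0.54). The second probe set of Lox stood at −0.58 and that of Tnc at −0.12, and neither was called. The design has 1 array per group, and these values do not show that the genotypes act alike.

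For 14 of the 18 members with several probe sets, all of them had the same call from 0 to 14 h; the exceptions were Col18a1, Col5a1, Fbln1 and Lamc1. From 0 to 3 h the calls were the same for 9 of 18, and Lox alone had opposite calls.

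**Figure D5:**
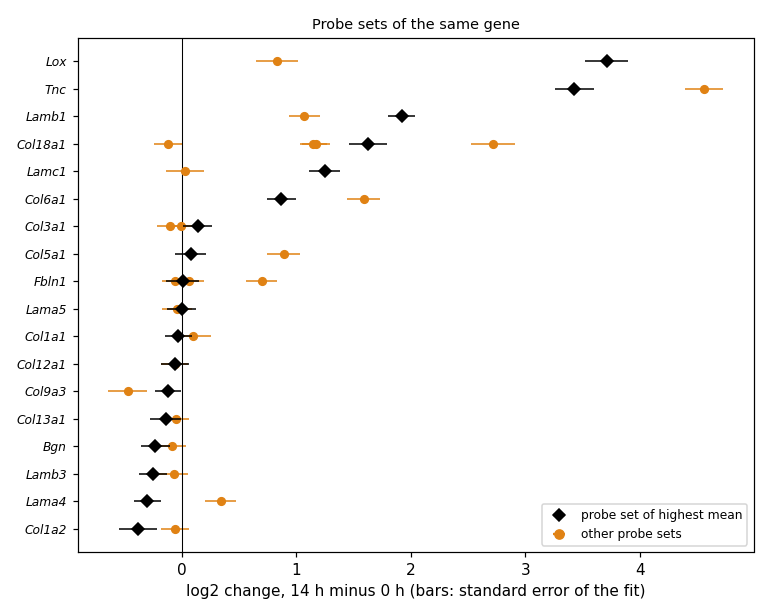
Log2 change from 0 to 14 h with its standard error for each probe set of the 18 members that have more than 1; black diamonds are the probe sets of highest mean used in the text and orange circles the others. For Lox, Tnc, Lamb1 and Col6a1 every probe set is above 0 but sizes differ, while Lamc1 and Col18a1 each have a probe set near 0 beside risen ones.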

How the data were processed

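Cumulus cell RNA of 8 mouse samples was measured on Affymetrix arrays of the mouse genome, per the labels after 2 rounds of amplification from 100 ng of total RNA. The authors deposited log2 signals made with RMA, per the submitters' processing notes. No version of it appears in the sources used here. The values have 2 decimals and were used as deposited. Of 12488 probe sets 66 controls were left out and no low values were filtered. Symbols come from the platform's annotation; all 53 matched RefSeq (GRCm38.p6) by gene ID.

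The members and lists were chosen with earlier results of these data known. limma 3.58.1 in R 4.3.3 was fitted with time and genotype (3 residual degrees of freedom, prior 7.24) and, for the departure at 14 h, their interaction (2 and 8.2); the method was tested on simulated data. Standard errors had medians of 0.13 (time contrasts), 0.0917 (genotype) and 0.208 (departure). The number of arrays limits the precision. Members with a called change of at least 1 are given array by array, and others by counts and single values. Equal values made up at most 2.54% of probe sets in any pair of arrays. Alternatives were median centring, quantile normalization, leaving out the lowest 40%, averaged probe sets, an intensity trend, no genotype term, the 4 arrays of 2 times, and leaving out each array.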

Additional observations from a re-analysis of the deposited data

Results flagged for a closer look

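In 4 cases WT and EP2KO moved opposite ways by at least 0.2 each between the same times, 1 array per genotype and time, and the differences were not tested on their own. They come from 43 of 212 member steps with opposite signs. From 0 to 3 h Col4a1 changed by 0.20 in WT and −0.26 in EP2KO. From 9 to 14 h Dcn, decorin, changed by −0.23 in WT and 0.43 in EP2KO, and Hspg2, perlecan, by −0.23 and 0.41. From 0 to 14 h Fbln1 changed by 0.22 in WT and −0.20 in EP2KO.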

How the results depend on the processing

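The 16 rises from 0 to 14 h ranged from 16 to 17 when an array was left out and from 14 to 17 otherwise, and the same 16 rose in each alternative but the filter, which left 14 of them; falls were 0, or 0 to 1 with an array left out. Leaving out an array gave 4 to 8 rises and 2 to 18 falls at 3 h, 7 to 16 rises and 0 to 3 falls from 3 to 9 h, and 8 to 15 rises and 0 to 1 falls from 9 to 14 h. With the 4 arrays of the 2 times alone 9 fell at 3 h, 1 fell from 3 to 9 h, and 5 rose and 0 fell from 9 to 14 h. Without the lowest 40% of probe sets, which leaves 35 members, 10 fell at 3 h. Without the genotype term 0 fell from 9 to 14 h. The Lox rise at 3 h turned to −0.01 with its probe sets averaged; its second probe set fell. Genotype and departure counts of members stayed at 0 in all alternatives that could be fitted; without a 14 h array the departure could not be. Of all probe sets, 3152 fell at 3 h, against 1585 without the lowest 40%, 1911 with averaged probe sets, 1316 with 4 arrays and 803 to 3216 with an array left out; the 2161 rises became 1047 to 2255 with an array left out. From 3 to 9 h the 943 rises became 561 with averaged probe sets, 385 with 4 arrays and 163 to 1039 with an array left out, and the 1469 falls 872 with 4 arrays and 326 to 1583. From 9 to 14 h the 1247 rises became 301 and 606 to 1327 and the 1249 falls 398 and 680 to 1341 in the same alternatives. From 0 to 14 h the 1682 rises and 1893 falls became 1065 to 1768 and 1206 to 2041 with an array left out. The 10 departures became 0 after median centring, without the lowest 40%, with averaged probe sets, and with any array of 0, 3 or 9 h left out. The cause of these changes was not tested, except that fewer samples or genes were fitted. No paired analysis was possible because each group holds 1 array and the labels link no animals.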
